A study of Mus musculus with 18 samples.

Results

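Ribosome footprints on coding sequences were compared between mouse erythroblasts given tunicamycin and untreated erythroblasts. The data are the lines of the deposited count table that hold the coding sequence (CDS) of a gene, in the 6 libraries made from cycloheximide-treated cells, of 18 samples in the series. All 20683 genes with a CDS line were taken. Of these, 7871 had 0 footprints in the 6 libraries and 9265 had enough for a test.

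The erythroblasts, precursors of red blood cells, came from fetal liver of FVB/n x C57BL/6 mice of genotype Trp53 -/-, an allele that every group carries. They grew in StemPro medium with erythropoietin (0.5 U/ml), stem cell factor (1% of a supernatant) and dexamethasone (1 nM). The untreated group received no stress agent, and the tunicamycin group received 2.5 ug/ml of tunicamycin over 1.5 h. Each group has 3 footprint libraries, from cells exposed to cycloheximide (100 ug/ml) in the last 5 min before harvest, and 3 total RNA libraries that are used here beside the footprints. Nothing in the labels ties the 3 samples of a group to separate cultures or animals, or says that animals were pooled, so each p-value measures only the spread between these samples, which may be technical.

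Tunicamycin blocks the first step of N-linked glycosylation, and unfolded glycoproteins in the endoplasmic reticulum (ER) then activate the kinase PERK, which phosphorylates the initiation factor eIF2. Phosphorylated eIF2 limits the supply of initiator tRNA to ribosomes, so most mRNAs initiate less while a small set with upstream open reading frames (uORFs) initiates more on its main coding sequence. In erythroid cells the same step is known for its control by the haem-regulated kinase HRI (Eif2ak1), which ties globin synthesis to haem. Cycloheximide freezes elongating ribosomes, and the mRNA fragments that they protect show which coding sequences were being read.

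CDS footprints came to between 6415127 and 6652042 reads in the untreated libraries and between 4531945 and 5086129 under tunicamycin. The CDS held between 92.5% and 93.8% of all footprints on annotated features in untreated cells and between 87.8% and 90.4% under tunicamycin. Values are CPM, the counts of a gene per 1000000 CDS footprints of its library, scaled by TMM factors between 0.985 and 1.03. This scaling sets the typical gene near 0, so an overall loss of initiation would not appear in these values. In bulk samples, fewer cells of a type and less RNA per cell cannot be told apart. The 12 erythroblast markers summed to 13241 ± 681 CPM in untreated cells and 13598 ± 237 CPM under tunicamycin (SD, n = 3, exact 2-sided permutation p = 0.5, where 0.1 is the smallest that 3 against 3 libraries allow). The table gives 0 footprints in every library for the adult globin genes (Hbb-bt, Hbb-bs, Hba-a2, Hba-a1), which maturing red cells read heavily. The related genes Hbq1b, Hbb-y and Hbb-bh1 had 217, 74 and 54 reads over 6 libraries. How reads shared by near-identical copies were counted is not stated, so the 0 values cannot show that adult globin went unread. Macrophage markers summed to at most 1.96 CPM in a library, neutrophil and monocyte markers to at most 0.31 CPM, and endothelial and stromal markers to 1.06, 0.31 and 0.911 CPM in untreated and 2.25, 1.77 and 1.37 CPM in treated libraries, with Pecam1 and Cdh5 at 0. Hepatocyte markers summed to 3.33, 2.48 and 3.04 CPM in untreated and 6.75, 7.51 and 7.06 CPM in treated libraries. Alb and Ttr were at 0 among them, and Apoa1, which made up most of the sum, rose (log2 1.08 ± 0.24, edgeR adjusted p = 0.0314; up to 0.146, without untreated replicate 2). Both sums were higher under tunicamycin without overlap (exact permutation p = 0.1 for each), and their part in other results was not tested. Mast cell markers summed to 224 ± 38.5 and 255 ± 59.2 CPM, mostly from Ms4a2 and Hdc, with Mcpt8 and Tpsb2 at 0. Trp53, deleted in all groups, had footprints of 42.0, 34.6 and 44.2 CPM and of 48.9, 51.2 and 58.0 CPM (log2 0.39 ± 0.12, edgeR adjusted p = 0.101), and a sum over its coding sequence cannot tell a deleted exon from the rest.

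Most coding sequences kept their share of footprints. Of the 9265 genes tested, 239 passed at an adjusted p under 0.05 (2.58%; edgeR quasi-likelihood test, Benjamini-Hochberg adjustment over all genes tested), with 165 higher under tunicamycin (1.78%) and 74 lower (0.799%). At an unadjusted p under 0.05 there were 1542. The median difference over all genes was 0.00 on the log2 scale, 94.5% of genes lay within 0.5 of 0, and the 5th and 95th percentiles were -0.37 and 0.44. Increases were larger than decreases among the genes that passed. Of the risers, 126 exceeded 0.5 and 49 exceeded 1, whereas 25 of the fallers went below -0.5 and 2 below -1, and the medians were 0.72 and -0.44. The 2 groups of libraries did not overlap for 161 risers and 73 fallers, against 2001 of all genes tested (21.6%).

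**Figure D1:**
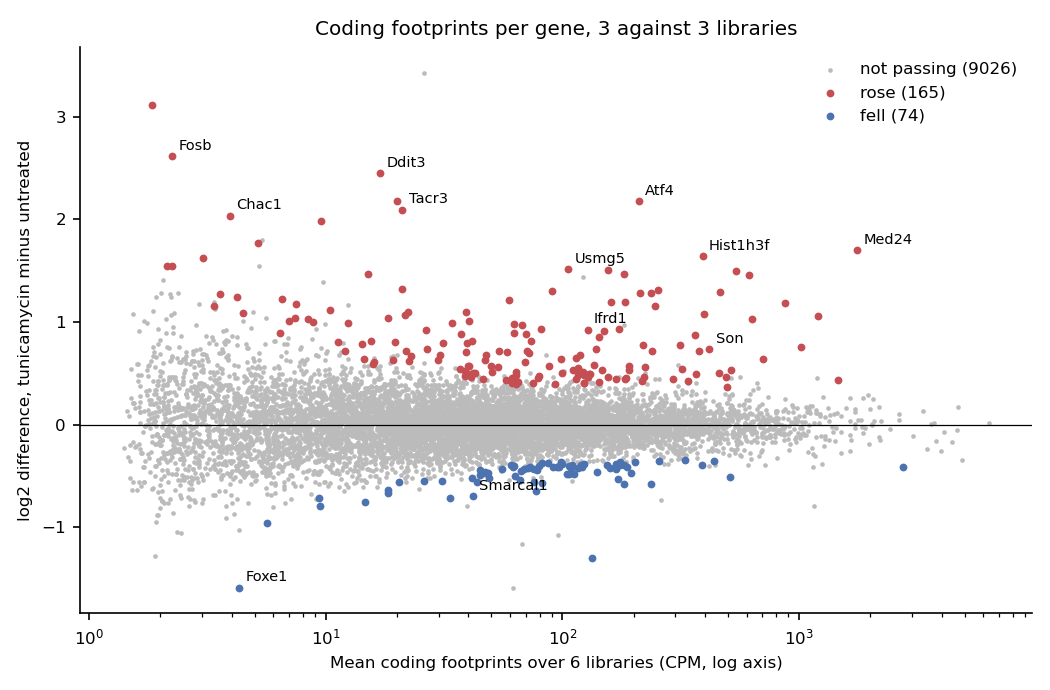
Log2 difference in coding footprints (tunicamycin minus untreated, vertical) against the mean over 6 libraries (CPM, log axis) for each of 9265 genes. The 165 genes that rose (red) reach far above the grey band of genes that did not pass, while most of the 74 that fell (blue) lie at its lower edge.

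How small a difference could pass depended on the number of footprints. Among 992 genes under 5 CPM, 1.11% passed, the median standard error (SE) was 0.32 and the smallest difference that passed was 1.08. Between 100 and 500 CPM, 4.29% of 2029 genes passed, with a median SE of 0.09 and differences down to 0.35. Under 5 CPM the calls were 10 increases and 1 decrease. The filter asks for a minimum level in 3 libraries of either group, so a gene low in 1 group could enter through the other. The direction of calls at low counts is therefore not independent of the filter. Calls near the threshold also changed with the set of libraries used. A test with fewer libraries has less power in general, so an ended call does not show that it rested on the library left out. Leaving out untreated replicate 2 or tunicamycin replicate 3 ended 186 and 180 of the 239 calls, leaving out tunicamycin replicate 2 ended 154, untreated replicate 1 ended 132, untreated replicate 3 ended 93 and tunicamycin replicate 1 ended 26. The whole count went to 58, 60, 92, 114, 185 and 431 in the same order. Whichever library was left out, 47 calls held (42 up, 5 down), and 33 (28 up, 5 down) also held under every other alternative that tested them.

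Several uORF mRNAs known to be read when eIF2 is phosphorylated rose. Of 19 tested genes on this list 8 rose (42.1%, against 1.78% of all genes tested), 0 fell and 11 did not pass. The median was 0.39 against 0.00 over all genes, with 17 of 19 above 0. Lists here were chosen with earlier results of these data known, so the share of a list is not an independent result. Atf4 encodes the transcription factor that drives the stress programme, and lies on chromosome 15 at 80255184 to 80257545 (GRCm38.p6). Its coding footprints were 74.2, 74.8 and 78.2 CPM in untreated replicates 1 to 3 and 288, 348 and 395 CPM under tunicamycin. The untreated libraries lay close together, and every treated library stood far above them. The difference was 2.18 ± 0.11 (log2 ± SE, edgeR adjusted p = 2.33e-08). Ddit3 encodes CHOP, a factor that promotes death in prolonged stress, and went from 5.757, 5.897 and 4.101 CPM to 19.8, 28.9 and 37.3 CPM (2.45 ± 0.23, 5.45e-05). Its leader was credited with 690 reads and its CDS with 521 over 6 libraries, and a read lying in both would count in each.

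The other members that rose form a feedback arm and a set of regulators. Ppp1r15a (GADD34), which brings a phosphatase to eIF2, was at 11.2, 16.6 and 14.6 CPM and then at 23.5, 29.8 and 37.3 CPM (1.10 ± 0.18, edgeR adjusted p = 0.0052). Its constitutive counterpart Ppp1r15b was at 188, 207 and 179 CPM in untreated cells and 197, 197 and 201 CPM under tunicamycin, and did not pass (0.05 ± 0.09, 0.841). The ranges did not overlap for the inducible subunit and overlapped for the constitutive one, a contrast that was not itself tested. Ifrd1, a transcriptional coregulator, went from 92.4, 91.9 and 80.2 CPM to 148, 168 and 187 CPM (0.93 ± 0.10, 0.000197). Ibtk, an inhibitor of Bruton tyrosine kinase that also serves a ubiquitin ligase, went from 12.88, 14.12 and 15.04 CPM to 24.3, 28.0 and 35.7 CPM (1.07 ± 0.16, 0.00281). In both genes all treated libraries stood above all untreated ones.

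Pnrc2, an adaptor of mRNA decay, went from 23.3, 22.5 and 22.8 CPM to 36.4, 40.2 and 59.2 CPM (0.99 ± 0.16, edgeR adjusted p = 0.00472). Slc35a4, a member of the nucleotide sugar transporter family, went from 1.06, 1.24 and 2.13 CPM to 3.27, 4.86 and 5.69 CPM (1.63 ± 0.34, 0.0221), with 96 coding reads in all. Most untreated libraries of Slc35a4 lay below the level of the filter, so its entry to the test needed the treated ones. Both mRNAs carried several times more leader than coding reads, 5326 against 1111 for Pnrc2 and 681 against 96 for Slc35a4. Eif5, which triggers GTP hydrolysis by eIF2 at the start codon, was at 183, 213 and 160 CPM and then 234, 270 and 244 CPM (0.43 ± 0.11, 0.0454). Atf4, Ddit3, Ppp1r15a, Ifrd1, Ibtk and Pnrc2 passed under every alternative that tested them. The call for Slc35a4 was lost when untreated replicate 1 (0.0775) or 2 (0.124) or tunicamycin replicate 2 (0.0762) or 3 (0.146) was left out, and that for Eif5 when untreated replicate 1 (0.117) or 3 (0.112) or tunicamycin replicate 2 (0.186) or 3 (0.150) was. Without genes whose leader reads were at least 0.8 of their coding reads, 5 of 16 members rose. That class has no upper bound, so it also takes out leader-dominated mRNAs such as Pnrc2 and Slc35a4. Among members that did not pass, the bZIP factor genes Atf5 (0.67 ± 0.20, 0.0953) and Cebpb (0.39 ± 0.13, 0.132) had no overlap between treatments. The ribosome quality control ligase gene Zfp598 had the lowest value on the list (-0.38 ± 0.15, 0.200), and the arginine transporter gene Slc7a1 was at -0.08 ± 0.12 (0.812).

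**Figure D2:**
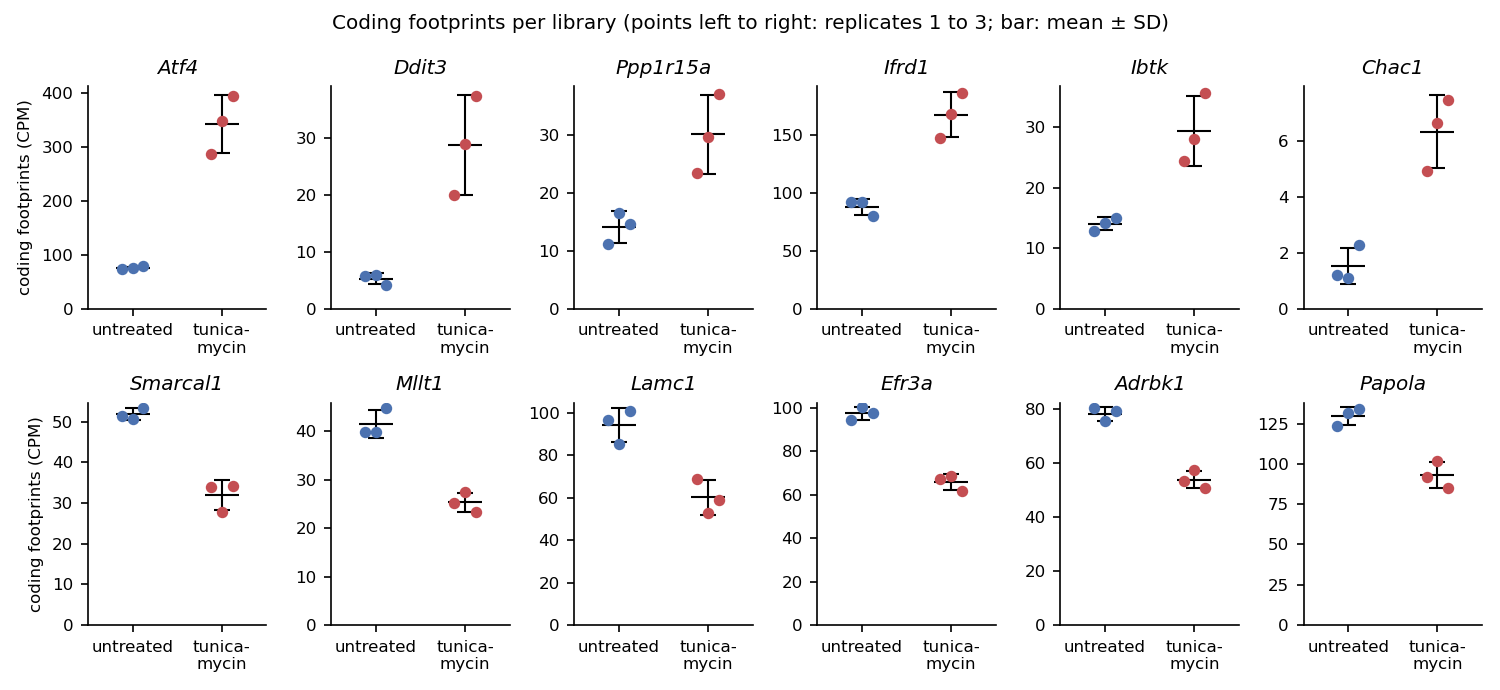
Coding footprints (CPM, axes from 0, a scale for each gene) in the 3 untreated (blue) and 3 tunicamycin (red) libraries, with mean and SD, for 6 genes that rose (upper row) and 6 that fell (lower row). No gene shown has a treated library inside the range of its untreated libraries, and the shifts in the upper row are larger than those in the lower row.

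No tested gene on the list of ATF4 targets had a larger log2 difference than Atf4 itself at this time, an order that was not tested. Ddit3, which exceeded Atf4 (2.45), was placed on the uORF list and not on this one. Of 29 tested targets 3 rose (10.3%, against 1.78% of all genes tested), 0 fell and 26 did not pass, and the median was 0.05. Chac1, which degrades glutathione, went from 1.21, 1.09 and 2.28 CPM to 4.91, 6.62 and 7.45 CPM (2.04 ± 0.32, edgeR adjusted p = 0.00357). Most of its untreated libraries lay below the level of the filter, so its entry to the test needed the treated ones. Trib3, a pseudokinase that restrains ATF4 and AKT, went from 17.4, 14.3 and 17.8 CPM to 26.8, 22.3 and 32.2 CPM (0.72 ± 0.16, 0.0296). Atf3, a bZIP repressor, went from 1.67, 2.48 and 2.13 CPM to 4.09, 4.42 and 5.49 CPM (1.15 ± 0.29, 0.0451). Treated libraries exceeded untreated ones throughout for these 3 genes. Chac1 passed whichever library was left out. Trib3 lost its call when untreated replicate 1 (0.0580), 2 (0.146) or 3 (0.0501) or tunicamycin replicate 3 (0.170) was left out, and Atf3 when untreated replicate 1 (0.143), 2 (0.124) or 3 (0.0923) or tunicamycin replicate 2 (0.103) or 3 (0.240) was. The list had 1 riser when any single untreated library or tunicamycin replicate 3 was left out.

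Targets for amino acid supply showed small values of either sign. Slc3a2, the heavy chain of amino acid exchangers, was at 547, 569 and 599 CPM and then at 659, 720 and 892 CPM, without passing (0.40 ± 0.10, edgeR adjusted p = 0.0529). It passed without tunicamycin replicate 1 (0.00849). Phgdh, the first enzyme of serine synthesis, was at -0.40 ± 0.10 (0.0563). The asparagine synthetase gene Asns (-0.04 ± 0.08), the serine pathway gene Psat1 (-0.04 ± 0.08) and the folate enzyme gene Shmt2 (0.06 ± 0.08) were close to 0. None of 15 amino acid transporters and none of 20 cytosolic tRNA synthetases passed by edgeR (medians 0.03 and 0.04). In each list 1 gene had an unadjusted p under 0.05, and DESeq2 called 1 transporter gene and 0 synthetases.

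ATF4 binds, with C/EBP partners, a DNA element that was searched as TGATGNAA on either strand (TTNCATCA on the other) in the 300 bases around each gene start given by RefSeq (GRCm38.p6), from 250 before to 50 after it. The element was in 3.97% of all 32851 windows in that table and in 190 of the 7575 tested genes with a window (2.51%). It was in 10 of 24 ATF4 targets with a window (41.7%), among them the 3 that rose, in 9 of 138 risers (6.52%) and in 0 of 53 fallers. Those 3 targets are counted among the 9 risers. The list was made of targets already known, so its share is not an independent result. The element was in 0 of 16 uORF mRNAs, of which 7 had risen, and in 0 of 24 immediate early genes. The match is a description of letters in a window and not a site of binding. The stretches below hold the element of Chac1 (chr2:119351038-119351067, + strand, element at position -193 from the start), Atf3 (chr1:191183425-191183454, - strand, position -110) and Herpud1 (chr8:94386306-94386335, + strand, position -112), shown because they are promoters of genes whose footprints rose. Each is 30 bases on the strand of its gene, 5′ to 3′, with the element in capitals.
Chac1: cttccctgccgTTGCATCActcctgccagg
Atf3: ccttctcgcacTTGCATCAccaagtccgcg
Herpud1: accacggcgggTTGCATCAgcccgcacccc
The stretches shown hold the same TTGCATCA core in the same orientation, but they were picked from the 9 risers with the element. The others differ. Trib3 holds TTACATCA, Arl2bp TTCCATCA, Cmc2 TGATGGAA and Hist1h4n TGATGAAA, and Hax1 and Sh3bgrl hold TGATGCAA, the other orientation. In Trib3 the element lies at position 14, after the start.

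Of the ER factors, Herpud1, which assembles the complex that exports misfolded proteins from the ER, went from 40.9, 39.1 and 42.4 CPM to 50.5, 68.2 and 82.2 CPM (0.72 ± 0.14, edgeR adjusted p = 0.016). Xbp1, a transcription factor of the unfolded protein response, went from 40.5, 46.4 and 42.8 CPM to 54.4, 67.3 and 70.0 CPM (0.56 ± 0.12, 0.0184). Edem3, a mannose-trimming enzyme of the same disposal route, fell from 74.2, 84.3 and 86.1 CPM to 59.5, 61.2 and 62.4 CPM (-0.42 ± 0.10, 0.0368). In each of these genes treated and untreated libraries were apart. The ER-associated degradation list held 2 risers (8.70%, against 1.78% of all genes tested) and 1 faller (4.35%, against 0.799%) among 23 tested (median 0.05). Herpud1 lost its call when untreated replicate 2 (0.0998) or tunicamycin replicate 2 (0.0662) or 3 (0.108) was left out. Xbp1 lost it for every library left out except tunicamycin replicate 1 (up to 0.114, for tunicamycin replicate 3), and Edem3 for untreated replicate 2 (0.147) or 3 (0.0842) and tunicamycin replicate 2 (0.103) or 3 (0.114). Without untreated replicate 2 or without tunicamycin replicate 2 or 3 the list had 0 risers and 0 fallers.

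None of 28 ER chaperones and folding enzymes passed by edgeR, DESeq2 or voom, 7 had an unadjusted p under 0.05 in edgeR, and the median was 0.01. Without tunicamycin replicate 1 there were 2 risers and 2 fallers. Hspa5 (BiP), the main ER chaperone, was at 1634, 1784 and 1871 CPM and then at 1979, 2166 and 2333 CPM. The groups did not overlap, and the difference did not pass (0.29 ± 0.09, edgeR adjusted p = 0.108). It passed, at 0.0496, without tunicamycin replicate 1. The neurotrophic ER factor Manf was at 0.38 ± 0.12 (0.121). At the other end were the glycoprotein folding sensor Uggt1 (-0.32 ± 0.10, 0.0969) and the disulfide isomerase Txndc5 (-0.38 ± 0.10, 0.0684), which passed without tunicamycin replicate 1 (0.0229 and 0.0274). The lectin chaperones Calr and Canx were both at 0.00.

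Genes of N-glycosylation, the pathway that tunicamycin blocks, held a few calls in each direction. Of 39 tested, 2 rose (5.13%, against 1.78% of all genes tested), 2 fell (5.13%, against 0.799%) and 35 did not pass (median -0.03). Without untreated replicate 2 or without tunicamycin replicate 2 or 3 the list had 1 riser and 0 fallers. Ost4, a very small subunit of the oligosaccharyltransferase that attaches the glycan, went from 58.5, 49.5 and 52.5 CPM to 81.2, 81.7 and 101 CPM (0.72 ± 0.11, edgeR adjusted p = 0.00338). Rpn1 (ribophorin I), a large subunit of the same enzyme, fell from 377, 350 and 382 CPM to 313, 280 and 280 CPM (-0.35 ± 0.09, 0.0463). These 2 subunits of 1 complex changed in opposite directions, each without overlap between treatments. Dpm2, a regulator of dolichol phosphate mannose synthesis, rose by 0.67 ± 0.14 (0.0203), and the glucosidase gene Mogs, which starts glycan trimming, was lower by a log2 difference of -0.39 ± 0.10 (0.0449). Ost4 passed under every alternative that tested it, although its leader was credited with 2316 reads and its CDS with 2334. Rpn1 and Mogs lost their calls for every library left out except tunicamycin replicate 1 (up to 0.207 for each), and Dpm2 for untreated replicate 2 (0.125) or tunicamycin replicate 2 (0.0662) or 3 (0.113).

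In ER targeting, 2 of 26 tested genes rose (7.69%, against 1.78% of all genes tested) and 0 fell (median -0.01). Spcs1, a small subunit of signal peptidase, went from 88.0, 83.2 and 103 CPM to 133, 138 and 170 CPM (0.68 ± 0.11, edgeR adjusted p = 0.0048) and passed under every alternative that tested it. Srpr, the receptor for the signal recognition particle, rose by 0.45 ± 0.10 (0.0236), a call that ended without untreated replicate 2 (0.129) or 3 (0.0536) or without tunicamycin replicate 2 (0.0916) or 3 (0.114).

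Among the 23 genes for eIF2, its exchange factor eIF2B, its kinases and related factors, Ppp1r15a rose and Eif2d fell (median 0.04). Eif2d, an alternative factor for loading tRNA onto ribosomes, went from 46.2, 53.5 and 54.5 CPM to 37.2, 40.8 and 35.7 CPM (-0.44 ± 0.11, edgeR adjusted p = 0.0492). Its call ended under 10 of 17 alternatives, among them DESeq2 and each omission of a library except untreated replicate 1 (up to 0.211). The haem-regulated kinase gene Eif2ak1 was at 125, 127 and 138 CPM and then at 147, 172 and 168 CPM, without overlap and without passing (0.32 ± 0.09, 0.0843; 0.0346 without tunicamycin replicate 1).

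Of 35 other initiation factor genes tested, 2 rose (Eif5 and Eif1) and 2 fell (median -0.01). Eif1, which guards start codon choice, was at 1.06, 0.776 and 1.52 CPM and then 2.86, 4.42 and 2.75 CPM (1.55 ± 0.37, edgeR adjusted p = 0.0404). Its untreated libraries lay below the level that the filter asks for, so it entered the test only through the treated ones. Bzw1, an eIF5-mimic protein, fell from 175, 172 and 180 CPM to 142, 144 and 116 CPM (-0.39 ± 0.10, 0.0465). Eif4ebp2, a repressor of the cap-binding factor eIF4E, fell from 73.5, 74.8 and 83.5 CPM to 60.3, 60.9 and 48.2 CPM (-0.45 ± 0.11, 0.0422). All of these were apart between treatments. With 1 library left out, the calls for Bzw1 and Eif4ebp2 held only where it was tunicamycin replicate 1 (otherwise up to 0.237 and 0.214), and that for Eif1 ended without untreated replicate 1 (0.106) or 2 (0.171) or without tunicamycin replicate 2 (0.167) or 3 (0.108).

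Ribosomal protein genes, whose counts are uncertain because of near-identical processed copies in the genome, had low medians with members on both sides. For the small subunit 2 of 20 rose and 3 fell (median -0.28, 5 of 20 above 0), and for the large subunit 2 of 30 rose and 1 fell (median -0.10, 10 of 30 above 0). Rps18, in the small subunit, fell from 248, 318 and 286 CPM to 181, 227 and 162 CPM (-0.58 ± 0.12, edgeR adjusted p = 0.021). Rps25, known for its part in internal ribosome entry, went the other way, from 53.8, 55.1 and 56.2 CPM to 79.2, 96.7 and 91.8 CPM (0.70 ± 0.10, 0.00214). Rpl41, which encodes one of the shortest known proteins, went from 27.9, 22.5 and 24.3 CPM to 35.8, 58.3 and 66.3 CPM (1.10 ± 0.18, 0.00472). Rps27l (0.49 ± 0.10, 0.0155) and Rplp1 (0.65 ± 0.13, 0.0168) also rose, and Rps2 (-0.53 ± 0.13, 0.0481) and Rpl37a (-0.64 ± 0.16, 0.0447) fell. The rises of Rps25 and Rpl41 passed under every alternative. The call for Rps18 ended without untreated replicate 2 (0.132) or without tunicamycin replicate 3 (0.121). Without tunicamycin replicate 3 these calls ended too (0.108 for Rps27l, 0.111 for Rplp1, 0.207 for Rps2 and 0.202 for Rpl37a). With 1 library left out, the number of small subunit genes that fell ranged from 0 (without untreated replicate 2 or without tunicamycin replicate 3) to 5 (without tunicamycin replicate 1).

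As sums, small subunit genes came to 11534 ± 433 CPM in untreated and 10401 ± 717 CPM in treated libraries, and large subunit genes to 12291 ± 288 and 10778 ± 833 CPM (SD, n = 3, exact permutation p = 0.1 for each, the smallest possible). None of 19 elongation factors and other mRNAs with a terminal oligopyrimidine tract passed by edgeR, 8 had an unadjusted p under 0.05, DESeq2 called 2 and edgeR without tunicamycin replicate 1 called 2 risers and 3 fallers, and their sum was 18081 ± 795 CPM and then 15696 ± 1456 CPM (exact permutation p = 0.1). Pabpc1, the poly(A) binding protein, was at 1750, 1576 and 1080 CPM and then at 1182, 821 and 536 CPM, with overlapping groups (-0.79 ± 0.21, edgeR adjusted p = 0.0603). Replicate 3 was the lowest in both groups, and the gene passed without untreated replicate 3 (0.0373) or without tunicamycin replicate 1 (0.000132). None of 75 mitochondrial ribosomal protein genes passed by edgeR (median -0.01), 18 had an unadjusted p under 0.05 and DESeq2 called 1.

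Histone genes made up a large share of the risers. Replication-dependent core histone genes encode the histones made for new DNA. Of 51 tested, 32 rose (62.7%, against 1.78% of all genes tested), 0 fell and 19 did not pass, with a median of 0.77. By class, 11 of 13 H2A genes rose (median 1.08), 9 of 12 H4 genes (0.74), 5 of 10 H3 genes (0.73) and 7 of 16 H2B genes (0.59). Histone copies are nearly identical in sequence, so sums over copies are given beside single genes. How reads shared by copies were counted is not stated, and a sum may carry the same uncertainty. The sum over all core histone genes was 9066, 8138 and 10764 CPM in untreated replicates 1 to 3 and 14402, 15154 and 22321 CPM under tunicamycin. Replicate 3 was the highest in both groups, and the groups did not overlap. The log2 ratio of the means was 0.89 (exact permutation p = 0.1), from 0.66 without tunicamycin replicate 3 to 1.01 without untreated replicate 3 or without tunicamycin replicate 1.

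**Figure D3:**
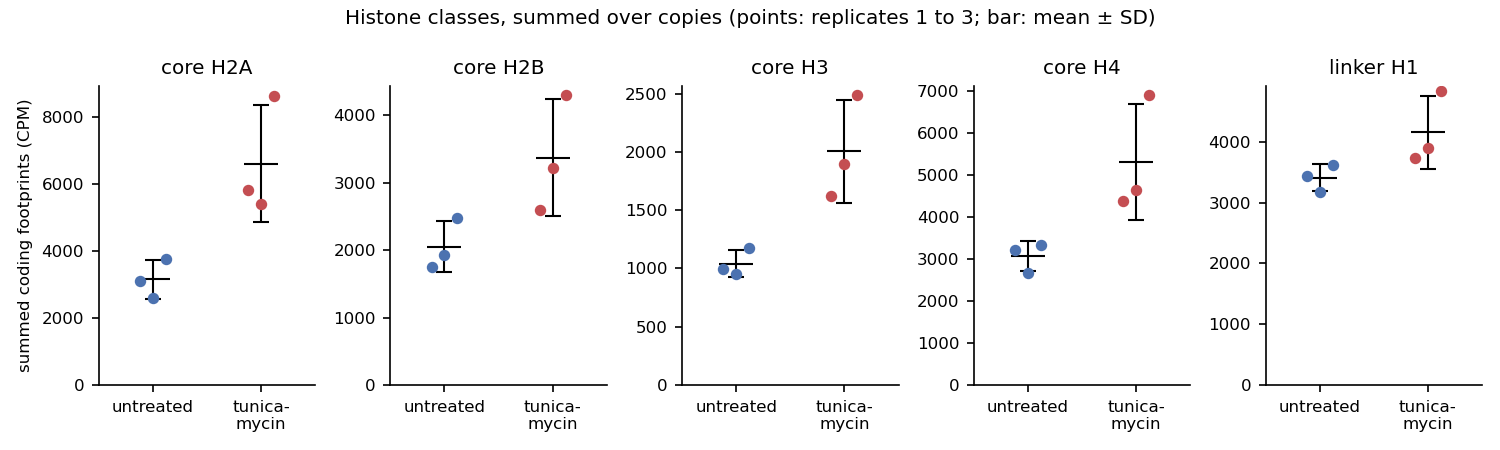
Coding footprints summed over the copies of each histone class (CPM, axes from 0, a scale for each class) in 3 untreated and 3 tunicamycin libraries, with mean and SD. In the 4 core classes each treated library is above each untreated one, and tunicamycin replicate 3 is the highest.

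H2A went from 3152 ± 590 to 6608 ± 1753 CPM (SD, n = 3, log2 1.07), H3 from 1042 ± 118 to 2004 ± 440 CPM (0.94), H4 from 3075 ± 356 to 5311 ± 1392 CPM (0.79) and H2B from 2053 ± 383 to 3370 ± 868 CPM (0.72). The linker histone H1, which sits outside the nucleosome core, went from 3410 ± 221 to 4155 ± 594 CPM (0.28), and Hist1h1b was the member of 5 that rose (0.43 ± 0.09, edgeR adjusted p = 0.0236; up to 0.157, without untreated replicate 2). Hist1h3h, an H3 copy, went from 74.7, 71.5 and 97.5 CPM to 175, 246 and 270 CPM (1.50 ± 0.15, 6.6e-05). Hist1h3d went from 128, 111 and 135 CPM to 267, 289 and 351 CPM (1.28 ± 0.11, 2.62e-05), and the H2B copy Hist1h2bn from 55.9, 52.6 and 47.8 CPM to 95.7, 138 and 153 CPM (1.30 ± 0.14, 0.000197). These 3 are the core histone genes whose calls held under every alternative that tested them. Robust dispersion in edgeR gave 10 core histone risers, and omitting untreated replicate 2 or tunicamycin replicate 3 gave 13 and 18. Leader reads were at least 0.8 of coding reads for 11 of the 32, Hist1h3h and Hist1h3d among them, and without such genes 21 of 40 rose. Of 7 replacement histone variants, which are made outside of replication, 2 rose: the centromeric Cenpa (0.57 ± 0.11, 0.0145) and the damage-marking H2afx (0.47 ± 0.11, 0.0368). Both calls ended without untreated replicate 1 (0.0592 and 0.0794) or 2 (0.0509 and 0.171) or without tunicamycin replicate 2 (0.0729 and 0.112), and that for H2afx also without tunicamycin replicate 3 (0.186).

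Immediate early genes are switched on within minutes of a stimulus. They held 5 risers (16.1%, against 1.78% of all genes tested) and 0 fallers among 31 tested (median 0.32, 27 of 31 above 0). Ier2 went from 30.8, 29.6 and 29.6 CPM to 45.4, 55.4 and 57.7 CPM (0.82 ± 0.12, edgeR adjusted p = 0.00204) and passed under every alternative. The zinc finger factor gene Egr1 went from 2.42, 3.10 and 1.97 CPM to 5.11, 6.40 and 6.28 CPM (1.24 ± 0.26, 0.0236). Fosb, a subunit of AP-1, was at 1.21, 0.466 and 0.152 CPM and then at 6.14, 3.75 and 1.76 CPM (2.62 ± 0.56, 0.0231). Fosb rested on 68 coding reads, and replicate 1 was the highest and replicate 3 the lowest in both groups. Its untreated libraries were below the level of the filter, so Fosb entered the test only through the treated ones. Klf6 (0.51 ± 0.11, 0.031) and the mRNA decay factor gene Zfp36l2 (0.46 ± 0.11, 0.0399) also rose. The calls for these 4 genes ended when single libraries were left out (up to 0.120 for Egr1, 0.125 for Fosb, 0.135 for Klf6 and 0.179 for Zfp36l2). The list had 1 riser without untreated replicate 2 or 3 or without tunicamycin replicate 2, and 2 without tunicamycin replicate 3. The serum response factor gene Srf had the lowest value (-0.57 ± 0.22, 0.200).

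Subunits of nuclear RNA polymerases included 4 risers (15.4%, against 1.78% of all genes tested) and 0 fallers among 26 tested (median 0.09). Their summed footprints were at 3498 ± 137 CPM in untreated cells and at 4027 ± 231 CPM under tunicamycin (SD, n = 3, exact permutation p = 0.1). Polr2k, shared by all the polymerases, went from 4.39, 4.50 and 5.01 CPM to 7.57, 8.61 and 11.8 CPM (1.01 ± 0.22, edgeR adjusted p = 0.0296). The polymerase III subunits Polr3gl (0.73 ± 0.17, 0.0404) and Polr3k (0.57 ± 0.13, 0.0284) and the catalytic polymerase I subunit Polr1a (0.47 ± 0.12, 0.047) rose too. Each was without overlap, and none of the 4 calls held without untreated replicate 2 or without tunicamycin replicate 3, where adjusted p reached 0.198, 0.227, 0.165 and 0.240.

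Red-cell genes moved little. Of 20 haem synthesis genes 1 rose (median 0.10): Tmem14c, a mitochondrial protein needed for haem synthesis in erythroid cells, went from 365, 369 and 405 CPM to 492, 516 and 605 CPM (0.50 ± 0.09, edgeR adjusted p = 0.0127). Alas2, the rate-limiting enzyme of that pathway in red cells, was at 219, 280 and 259 CPM and then at 243, 329 and 313 CPM with overlap (0.22 ± 0.12, 0.353). Of 32 membrane and skeleton genes 1 rose (median 0.03), the band 3 anion exchanger Slc4a1, from 436, 466 and 393 CPM to 538, 593 and 540 CPM (0.37 ± 0.09, 0.0438). The transferrin receptor gene Tfrc was at 3651, 3842 and 3282 CPM and then at 3904, 3456 and 3491 CPM (0.01 ± 0.09, 0.971), and its sign changed with the scaling. None of 21 iron genes and none of 28 erythroid transcription factors passed by edgeR, DESeq2 or voom (medians 0.03 and -0.05, with 2 and 10 at an unadjusted p under 0.05 in edgeR). Without tunicamycin replicate 1 the iron list held 1 riser and 1 faller and the factors 1 faller. Gata1 was at -0.07 ± 0.10 (0.794). The call for Tmem14c ended without untreated replicate 1 (0.0508) or 2 (0.0931) or without tunicamycin replicate 3 (0.0896), and that for Slc4a1 ended for every library left out except tunicamycin replicate 1 (up to 0.188). Gp5, a platelet glycoprotein gene and megakaryocyte marker, fell from 196, 202 and 241 CPM to 163, 161 and 156 CPM (-0.41 ± 0.10, 0.0357; up to 0.146, without tunicamycin replicate 3). It made up most of a megakaryocyte marker sum of 268 ± 31.6 and 212 ± 1.91 CPM, with Vwf at 0.

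In growth factor signalling 1 of 37 genes rose (2.70%, against 1.78% of all genes tested), 1 fell (2.70%, against 0.799%) and the median was -0.10. Cish, a feedback inhibitor induced through the erythropoietin receptor, rose by 0.43 ± 0.10 (edgeR adjusted p = 0.0411), and the survival kinase gene Akt1 fell from 120, 130 and 112 CPM to 97.6, 95.4 and 82.0 CPM (-0.40 ± 0.10, 0.047). Neither call held without untreated replicate 1 or 2 or without tunicamycin replicate 2 or 3 (up to 0.216 and 0.242), nor did that for Cish without untreated replicate 3 (0.0536).

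Organelle and housekeeping lists differed in their share of calls. Of all genes tested 1.78% rose and 0.799% fell. The risers were 20% of vacuolar ATPase genes (with 6.67% fallers), 15.4% of polyamine genes and 5.48% of oxidative phosphorylation genes. They were 2.5% of redox, 2.04% of proteasome and 1.61% of splicing factor genes. Of 73 oxidative phosphorylation genes 4 rose and 0 fell (median 0.08): Usmg5, a small subunit of ATP synthase, went from 57.3, 42.5 and 65.2 CPM to 111, 147 and 212 CPM (1.51 ± 0.19, edgeR adjusted p = 0.00072), and Cox6c (0.80 ± 0.19), Ndufb3 (0.56 ± 0.14) and Ndufa5 (0.49 ± 0.09) rose as well. Usmg5 passed whichever library was left out but not with robust dispersion (0.0895), and the list had 1 riser without untreated replicate 2 or without tunicamycin replicate 2 or 3, 2 without untreated replicate 1, 8 without untreated replicate 3 and 13 without tunicamycin replicate 1. Of 15 vacuolar ATPase genes, for the proton pump of lysosomes, Atp6v1f (1.21 ± 0.21, 0.00559), Atp6v0b (0.45 ± 0.09, 0.0231) and Atp6v0e (0.44 ± 0.10, 0.0272) rose and the regulatory subunit gene Atp6v1c1 fell (-0.41 ± 0.09, 0.0296). Atp6v1f passed whichever library was left out but not with robust dispersion (0.160), and the other 3 calls ended without untreated replicate 2 (0.133, 0.135 and 0.129) or without tunicamycin replicate 3 (0.119, 0.146 and 0.155). Of 13 polyamine genes, Sat1, which marks polyamines for export, rose from 7.27, 8.22 and 9.42 CPM to 16.57, 15.01 and 18.04 CPM (0.99 ± 0.17, 0.00595), and so did the antizyme gene Oaz1 (1.04 ± 0.23, 0.0296; up to 0.165, without tunicamycin replicate 3), which had 240 coding footprints and 2 RNA reads. Of 40 redox genes Sepw1, a small selenoprotein, rose from 108, 107 and 96.7 CPM to 138, 174 and 206 CPM (0.73 ± 0.12, 0.00516), and of 49 proteasome genes Psma3 rose (0.98 ± 0.16, 0.00472), each under every alternative that tested it. Near-equal leader reads were credited to Usmg5 (3980 against 3374 coding), Sat1 (354 against 404) and Psma3 (2033 against 2037). Of 62 splicing factors Son, a nuclear speckle protein, rose from 341, 300 and 300 CPM to 586, 459 and 522 CPM (0.74 ± 0.10, 0.00123), also under every alternative.

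**Figure D4:**
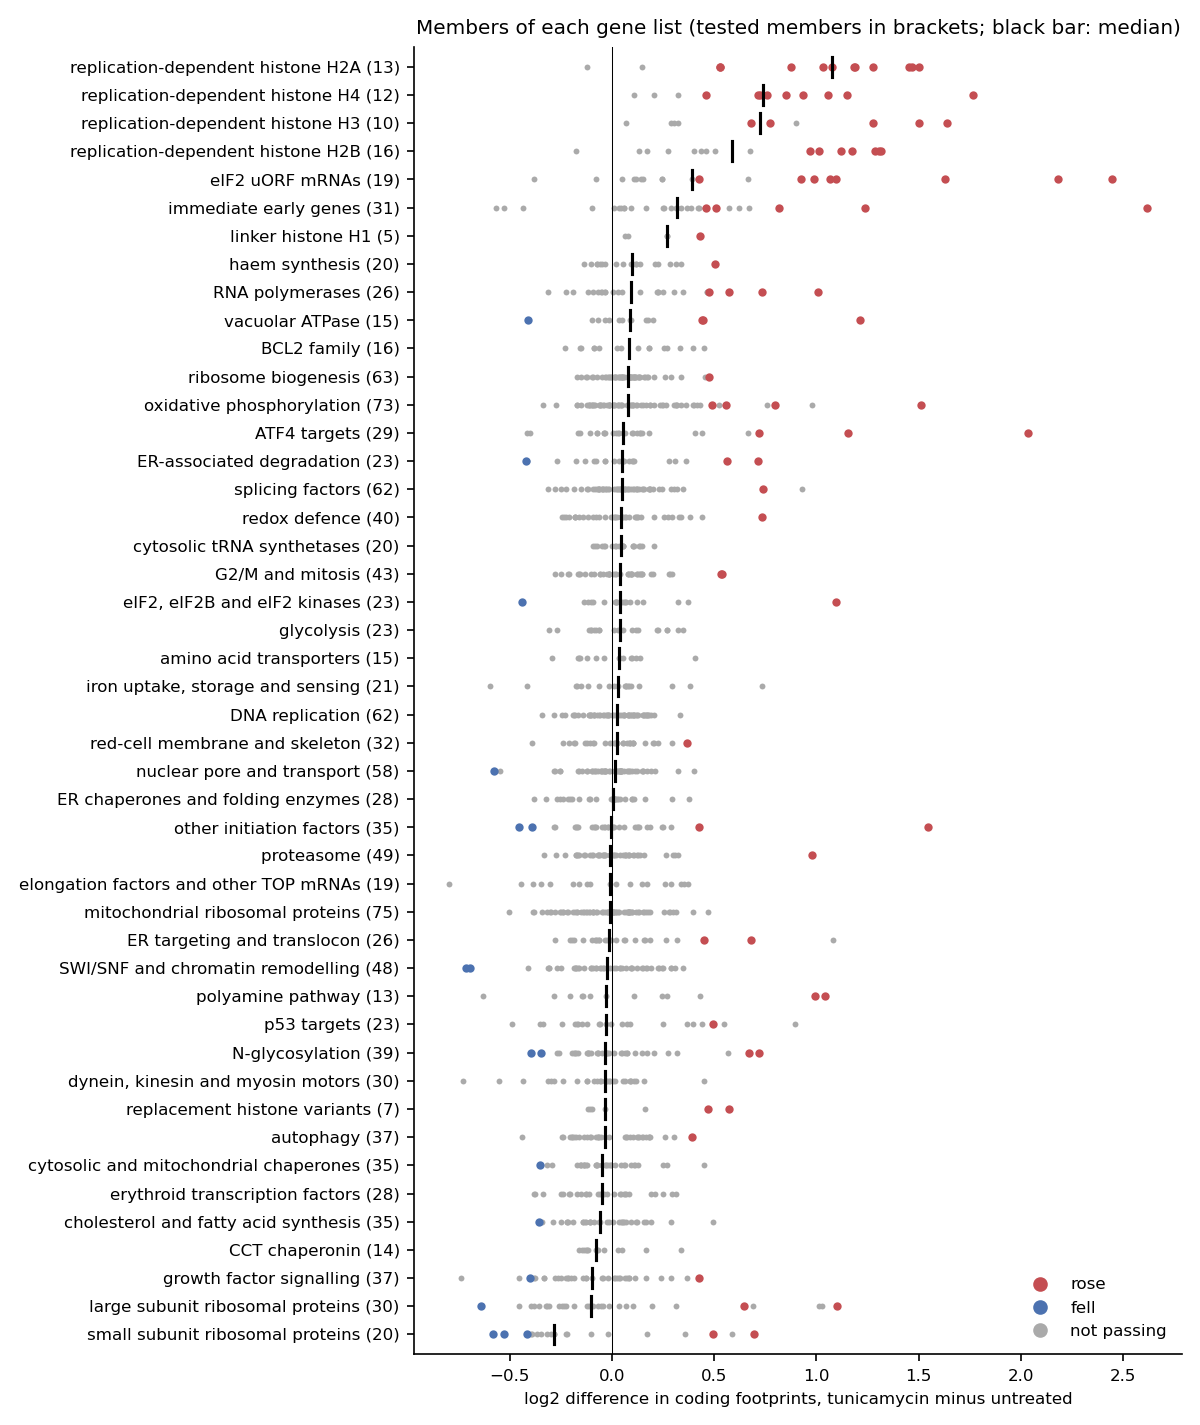
Log2 difference in coding footprints (tunicamycin minus untreated) for each tested member of 46 gene lists, with the number tested in brackets and the median as a black bar. Core histone, uORF and immediate early lists stand to the right, the small subunit ribosomal protein list to the left, and most other medians lie within 0.1 of 0.

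By edgeR none passed among 62 DNA replication genes, 23 glycolysis genes, 16 BCL2 family genes, 14 subunits of the CCT chaperonin and 30 motor protein genes, and their medians lay between -0.08 and 0.09. At an unadjusted p under 0.05 there were 7, 5, 0, 1 and 6, and DESeq2 called 1 glycolysis gene and 0 in the other lists. Without tunicamycin replicate 1 the motor genes held 1 riser and 5 fallers and the glycolysis genes 1 riser. Single genes rose in 3 lists: Rps27l, also a p53 target (of 23 tested), the autophagy protease gene Atg4b (0.39 ± 0.10, edgeR adjusted p = 0.0499, of 37) and Polr1a in ribosome biogenesis (of 63). Of 43 mitosis genes the cyclin-dependent kinase subunit gene Cks1b (0.54 ± 0.11, 0.0158) and the checkpoint kinase gene Bub1 (0.53 ± 0.10, 0.0155) rose. These calls ended without tunicamycin replicate 3, with adjusted p of 0.108 for Rps27l, 0.239 for Atg4b, 0.240 for Polr1a, 0.1003 for Cks1b and 0.108 for Bub1.

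No list held more than 3 genes that fell, against 0.799% of all genes tested. The small subunit ribosomal proteins had 3 of 20 (15%). Other initiation factors had 2 of 35 (5.71%), N-glycosylation 2 of 39 (5.13%) and chromatin remodelling 2 of 48 (4.17%). Of all the genes that fell, 5 kept their call under every alternative that tested them. Smarcal1, a helicase that rewinds DNA at stalled replication forks, lies on chromosome 1 at 72536695 to 72636790 (GRCm38.p6). It went from 51.5, 50.6 and 53.5 CPM to 34.0, 27.8 and 34.1 CPM (-0.69 ± 0.11, edgeR adjusted p = 0.00472). Mllt1, a reader of acetylated histones in the super elongation complex, went from 39.8, 39.7 and 44.8 CPM to 25.2, 27.4 and 23.3 CPM (-0.71 ± 0.12, 0.00521). Every treated library was below every untreated one for both genes. Lamc1, a laminin chain secreted through the ER, went from 96.8, 85.2 and 101 CPM to 68.9, 52.8 and 58.8 CPM (-0.65 ± 0.11, 0.00617). Efr3a, which anchors a lipid kinase to the plasma membrane, went from 94.5, 101 and 97.7 CPM to 67.5, 68.7 and 61.8 CPM (-0.57 ± 0.09, 0.00474). Adrbk1, the receptor kinase GRK2, went from 80.1, 75.3 and 79.1 CPM to 53.4, 57.2 and 50.8 CPM (-0.54 ± 0.10, 0.00789). The treated libraries lay below the untreated ones for these 3 as well.

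Among the fallers with many footprints, the fatty acid desaturase gene Fads2 went from 499, 477 and 493 CPM to 411, 373 and 363 CPM (-0.36 ± 0.08, edgeR adjusted p = 0.0387). The cold-shock domain gene Ybx3 went from 428, 448 and 453 CPM to 345, 378 and 291 CPM (-0.39 ± 0.10, 0.0466). Groups were apart in both. The nuclear pore gene Nup210 (-0.58 ± 0.13, 0.0275, of 58 pore and transport genes), the HSP90 cochaperone gene Fkbp4 (-0.35 ± 0.08, 0.0411) and Papola, the poly(A) polymerase (-0.48 ± 0.09, 0.0155), fell too. All of these calls ended without untreated replicate 2 or without tunicamycin replicate 3, with adjusted p up to 0.184 for Fads2, 0.236 for Ybx3, 0.135 for Nup210, 0.202 for Fkbp4 and 0.108 for Papola. Foxe1 had the largest decrease (-1.59 ± 0.40, 0.0470; up to 0.184, without tunicamycin replicate 3), from 158 coding reads and 1 RNA read in 6 libraries each.

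A few large increases lie on genes with hardly any RNA. Of the 239 calls, 7 belonged to genes with fewer than 10 RNA reads in 6 libraries (Foxe1, Il17rd, Kcnh3, Kl, Oaz1, Tacr3 and Vsig8), against 31 of all genes tested. Il17rd had the largest increase of all that passed (3.11 ± 0.68, edgeR adjusted p = 0.0283), from 54 coding reads. At so few reads its untreated libraries lay below the level of the filter, so Il17rd entered the test only through the treated ones. It lost its call when any single untreated library was left out (0.0719, 0.0509 and 0.0846 for replicates 1 to 3) or without tunicamycin replicate 2 (0.121). Kl, with 23177 coding footprints and 5 RNA reads, was at 455, 649 and 546 CPM and then at 602, 1052 and 920 CPM. Its groups overlapped and its call (0.64 ± 0.16, 0.0489) ended under 11 of 16 alternatives, up to 0.219 without tunicamycin replicate 2. The potassium channel gene Kcnh3, with 3 RNA reads, was at 7.58, 9.16 and 4.86 CPM and then 22.9, 49.2 and 26.3 CPM (2.18 ± 0.28, edgeR adjusted p = 0.00072). Med24, a Mediator subunit with 21876 RNA reads, was at 816, 1177 and 489 CPM and then at 1770, 4453 and 1833 CPM (1.70 ± 0.31, 0.0105). Replicate 2 was the highest in both groups for these 3 genes, and Med24 did not pass by DESeq2 or with robust dispersion. Leader reads of at least 0.8 of coding reads were found for 25 risers (15.2%) and 1 faller, against 235 of 9265 genes tested (2.54%). The rule for reads that lie in both leader and CDS is not stated in these sources.

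The median RNA change of the genes that passed was close to 0. Over 159 risers with at least 10 RNA reads the median log2 ratio of mean RNA was -0.06, and over 73 fallers it was 0.02. RNA was higher by more than 0.3 for 15 risers and lower by more than 0.3 for 0 fallers. The difference between the footprint and the RNA change was tested as an interaction in 12 libraries. Of 9218 genes 136 passed (1.48%, 94 with footprints up relative to RNA and 42 down, 1432 at an unadjusted p under 0.05). Of the 229 genes called in footprints that entered this test, 107 passed in the same direction (46.7%), and 78.7% of the genes that passed the interaction were called in footprints, which share their 6 libraries with it.

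**Figure D5:**
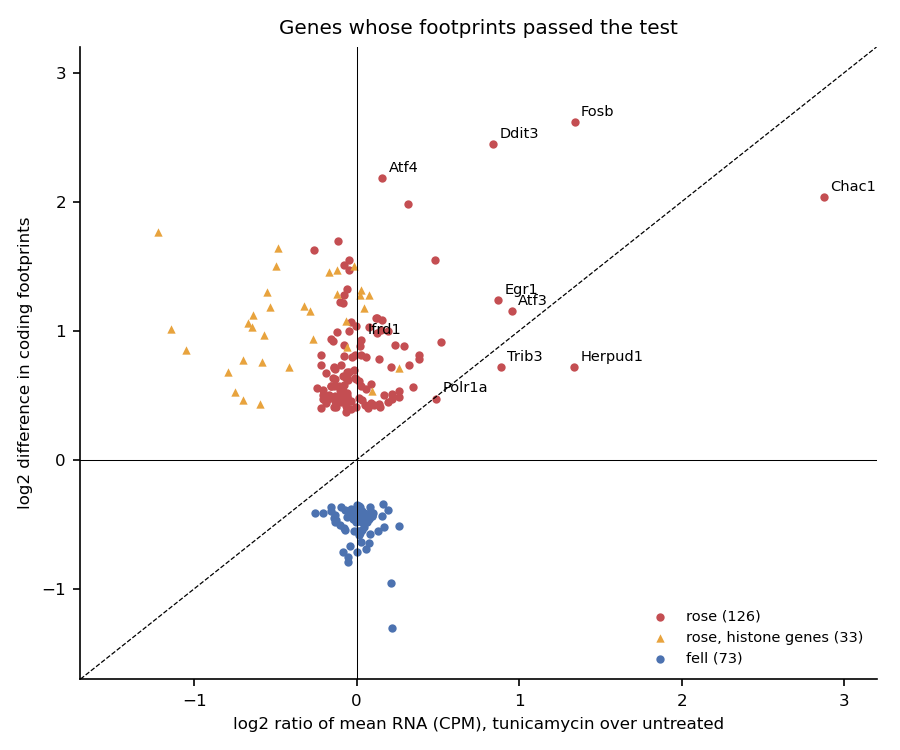
Log2 difference in coding footprints against the log2 ratio of mean RNA (tunicamycin over untreated) for called genes with at least 10 RNA reads; the dashed line marks equal change. Most points lie near a vertical line at 0 RNA change, histone genes are drawn as triangles, and Chac1, Herpud1 and Trib3 lie below the dashed line.

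Atf4 had an interaction of 2.01 (edgeR adjusted p = 2.2e-07) at an RNA ratio of 0.16. Among the next smallest interaction p-values were those of Scoc, a Golgi and autophagy protein (1.52, 0.00388), Ibtk (1.10, 0.00677), Usmg5 (1.58, 0.00765) and Ost4 (0.85, 0.00765). Of the core histone genes, Hist1h3h had 74 RNA reads over 6 libraries, Hist1h3d 122 and Hist1h2bn 87. Chac1 had more change in RNA (2.87) than in footprints (2.04), as did Herpud1 (1.34 and 0.72) and Trib3 (0.89 and 0.72), and none of these interactions passed (0.376, 0.0823 and 0.723). Polr1a was at 0.49 in RNA and 0.47 in footprints. Among fallers, Smarcal1 (-0.78, 0.0159), Efr3a (-0.60, 0.0101), Lamc1 (-0.75, 0.025), Mllt1 (-0.64, 0.0218) and Adrbk1 (-0.48, 0.0402) passed the interaction, with RNA ratios between -0.08 and 0.07.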

How the data were processed

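The deposited table holds raw counts, made by the authors, of cycloheximide footprints per gene on leader, CDS and 3' UTR and of RNA reads per gene. The submitters' processing notes list STAR, HTSeq, edgeR, mm10 and GRCm38, with neither versions nor counting options. For CDS counts, edgeR 4.0.16 (R 4.3.3) was run with TMM factors, a filterByExpr filter (count 10, total 15), then glmQLFit with glmQLFTest without covariates, 3 tunicamycin against 3 untreated libraries, Benjamini-Hochberg adjustment over all genes tested and a threshold of 0.05. The code was tested on simulated data. The interaction used the same test over 12 libraries. The SE is the log2 difference divided by the square root of its F value. Alternatives were RLE, upper quartile and no scaling, DESeq2 1.42.0, limma 3.58.1 (voom), robust dispersion, 2 other filters, 2 gene exclusions, a replicate block and each omission of a library.

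Named genes were, among those passing, the 15 largest changes in each direction with at least 5 CPM and no overlap, the 10 with most CPM, the 10 smallest p, up to 4 per list (2 not passing where none passed), a short fixed set and the 10 genes with most footprints. Further genes were chosen after their values were seen: members of counts, of the uORF, ATF4 and ER lists, and those in the section on other observations. The members and lists were chosen with earlier results of these data known. RefSeq (GRCm38.p6) matched 9247 of 9265 tested genes and gave promoter windows for 7575. Coding-length classes were not run, as protein lengths were not used here. Harringtonine libraries were not used here. Results for a few genes are not reported here.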

Additional observations from a re-analysis of the deposited data

How the results depend on the processing

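Without the filter on low counts 573 genes passed (358 up, 215 down) in place of 239. Leaving out 1 library gave between 58 and 431 calls, between 51 and 271 risers and between 5 and 160 fallers. The share of risers among the calls was 69.0% and reached 91.7% without tunicamycin replicate 3. The remaining alternatives that kept all libraries and had no block gave between 178 (library totals only) and 246 (RLE) calls. For the interaction DESeq2 gave 389 (212 up, 177 down) in place of 136, and leaving out 1 library gave between 23 and 317, with between 20 and 172 up and between 2 and 145 down. The log2 ratio of summed core histones stayed between 0.66 and 1.01 and that of H1 between 0.16 and 0.36 with 1 library left out. With the replicate number as a block 885 genes passed (522 up, 363 down), including all 239, and 581 in the interaction (309 up, 272 down). The block also called genes in lists that held none without it, among them ER chaperones (2 up, 4 down), motor proteins (1 up, 4 down), glycolysis (3 up, 1 down), DNA replication (1 up, 3 down) and erythroid transcription factors (1 up, 4 down), and called 11 small subunit ribosomal protein genes as fallers in place of 3. Without the low-count filter 8 of 31 such genes fell. Deviations of same-numbered libraries correlated at 0.35, 0.09 and 0.28, and each library correlated best with its own number, but 1 pair was under 0.1, so the numbers were not taken to pair the samples. Over 155 named genes 7 of 2597 values changed sign, 352 lost and 63 gained a call. The sign changes were at differences near 0: with 1 library left out the footprints of Actb lay between -0.0128 and 0.0414, the footprints of Car2 between -0.00929 and 0.0334 and the footprints of Tfrc between -0.0559 and 0.0611, and Tfrc was at -0.00305 by upper quartile scaling and -0.00176 by library totals. The cause was not tested. Genes under 5 CPM had a median SE of 0.32, so differences there below about 1 could not pass.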

Other observations

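Some called genes outside the lists are given singly. They were picked from the risers and fallers after their values were seen, genes of the same functions that did not pass were not counted, and nothing is said of any function as a group. Romo1, a small protein of the mitochondrial inner membrane, went from 27.9, 20.8 and 29.9 CPM to 44.999, 47.246 and 52.951 CPM (log2 0.89 ± 0.14, edgeR adjusted p = 0.00338) and passed under every alternative that tested it, although its leader was credited with 4263 reads and its CDS with 1219. Hax1, a mitochondrial survival factor, went from 12.4, 13.5 and 10.2 CPM to 18.2, 21.4 and 34.3 CPM (1.04 ± 0.21, 0.0184; up to 0.113, without tunicamycin replicate 3). Timm8b, a chaperone of mitochondrial import, rose by 0.49 ± 0.11 (0.0306; up to 0.170, without tunicamycin replicate 3). All 3 passed the interaction with RNA. The splicing kinase gene Clk1 went from 107, 116 and 102 CPM to 144, 144 and 169 CPM (0.49 ± 0.10, 0.0155; up to 0.113, without tunicamycin replicate 3), and Acin1, a nuclear RNA-binding protein, rose by 0.45 ± 0.08 (0.0105; up to 0.0899, without untreated replicate 2). Neither passed the interaction.

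Among fallers, Ptk2 (focal adhesion kinase) went from 68.6, 75.4 and 68.7 CPM to 54.2, 53.2 and 52.4 CPM (-0.41 ± 0.10, edgeR adjusted p = 0.0368; up to 0.160, without untreated replicate 2). Hbs1l, a ribosome rescue factor, went from 181, 184 and 178 CPM to 142, 141 and 123 CPM (-0.42 ± 0.09, 0.0236; up to 0.143, without tunicamycin replicate 3). Both were without overlap between treatments and passed the interaction (0.0371 and 0.0253).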
